A study of Mus musculus with 6 samples.

Results

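Excitation-contraction coupling genes and genes of the calcium store were examined in C2C12 cells after CNN3 knockdown. They are 10 genes chosen by name, Ryr1, Cacna1s, Cacnb1, Atp2a1, Atp2a2, Casq2, Jph1, Jph2, Stac3 and Chrna1, and the FPKM of all listed transcripts of a gene were summed. Of these, 8 had at least 1 listed transcript, with 13 transcripts in all among the 23949 that were matched to a gene. Ryr1, the calcium release channel of the sarcoplasmic reticulum, and Cacna1s, the pore of the voltage sensor, had none, so their expression was not analysed here. The whole series holds 11835 summed genes.

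C2C12 is a mouse myoblast line that fuses into myotubes when serum is withdrawn. Both groups carried transfected siRNA: 3 libraries came from cells that received NC siRNA, a negative control (siNC), and 3 from cells that received CNN3 siRNA (siCNN3). The cells had been moved to medium with a low share of horse serum, and the labels give their type as mouse myotube. The study's methods call the sequenced cells differentiating myoblasts. For differentiation assays in general they describe a second transfection and a later harvest than for proliferation assays, and they do not name the CNN3 siRNA of the sequenced cells. The labels number the libraries but do not say whether they came from separate cultures, so the p-values measure the spread between these libraries, which may be technical.

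In a muscle fibre, acetylcholine opens its receptor at the end plate and starts an action potential that enters the T-tubules. There the voltage sensor, a calcium channel complex that works with STAC3 at junctions held by the junctophilins, opens the ryanodine receptor of the neighbouring sarcoplasmic reticulum. Calcium held in that store by calsequestrin flows out and starts contraction, and SERCA pumps return it. C2C12 myotubes build this machinery as they mature.

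The targeted gene was checked first. Cnn3 measured 62.8, 61.4 and 62.8 FPKM across siNC replicates 1, 2 and 3, against 19.04, 39.2 and 25.6 FPKM across those of siCNN3, so each knockdown library lay below each control. limma placed Cnn3 at a log2 fold change of -1.19 (SE 0.24, adjusted p = 0.0669), and without siCNN3 replicate 2 it was -1.46 (adjusted p = 0.0475). Of 8 tested myotube markers, 4 were called lower: Acta1, Mylpf, Tnnt3 and Myh3. Myh3 averaged 2.41 FPKM in siNC and 0.302 in siCNN3, below the 0.5 FPKM that a gene had to average over all libraries to be tested, so it was tested through its siNC values. The summed FPKM of the 9 listed markers ranged from 174 to 205 in siNC and from 101 to 122 in siCNN3. Ckm, the muscle creatine kinase, averaged 0.680 ± 0.251 FPKM (SD, n = 3) in siNC and was listed at 0, 0.0760 and 0 FPKM in siCNN3, and Actn2 was not listed. The 4 listed markers of dividing myoblasts summed to between 125 and 223 FPKM in siNC and between 123 and 185 in siCNN3, most of it Top2a. Of these 4, Myf5 alone had a higher mean in siCNN3, with 3.55, 5.64 and 4.84 FPKM across siNC, against 12.95, 11.4 and 5.40 FPKM across siCNN3 (log2 fold change 0.88, adjusted p = 0.238, limma), and the groups overlapped. Of 6 interferon response markers, 4 were called higher, with sums of 10.0 to 306.4 FPKM in siNC and 1377 to 2960 in siCNN3. Defining markers of leukocytes (Ptprc, Adgre1, Csf1r, Itgam), of heart muscle (Myh6, Nppa, Myl7) and of fat cells (Adipoq, Plin1, Cidec) were not listed. The 1 listed fat cell marker, Fabp4, was called lower, at 8.09 to 10.9 FPKM in siNC and 2.17 to 3.13 in siCNN3. Smtn and Cnn1, the 2 listed smooth muscle markers, summed to 54.3 to 69.9 FPKM in siNC and 27.4 to 62.9 in siCNN3, and the 3 listed fibroblast markers to 139 to 200.7 and 65.97 to 110.05. No smooth muscle or fibroblast marker was called. The macrophage marker Cd68 ranged from 3.60 to 5.39 FPKM in siNC and from 1.96 to 3.56 in siCNN3, and the heart marker Tnni3 from 0.213 to 1.124 and from 0.391 to 0.798. The part of all these shifts in the results that follow was not tested.

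FPKM are values per length of transcript, so levels of different genes can be compared. In siNC the order of the means was Atp2a2 at 22.98 FPKM, Chrna1 at 12.7, Jph2 at 8.50, Jph1 at 3.01, Casq2 at 2.61, Cacnb1 at 2.53, Stac3 at 1.87 and Atp2a1 at 0.930. Only 2 steps in this order were larger than the spread, since the 3 Atp2a2 values lay above the 3 Chrna1 values and the 3 Jph2 values above those of Jph1. From Jph1 down to Atp2a1, the values of each gene overlapped those of the next. In siCNN3 the same 4 genes came first, in the same order, followed by Stac3 at 2.17 FPKM, Cacnb1 at 1.74, Casq2 at 1.05 and Atp2a1 at 0.377. Here the step from Casq2 to Atp2a1 was also free of overlap. Atp2a2 stood above 76.2% of all summed genes in siNC and Atp2a1 above 7.05%, so the set runs from well expressed genes to genes near the lower end of the data.

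**Figure D1:**
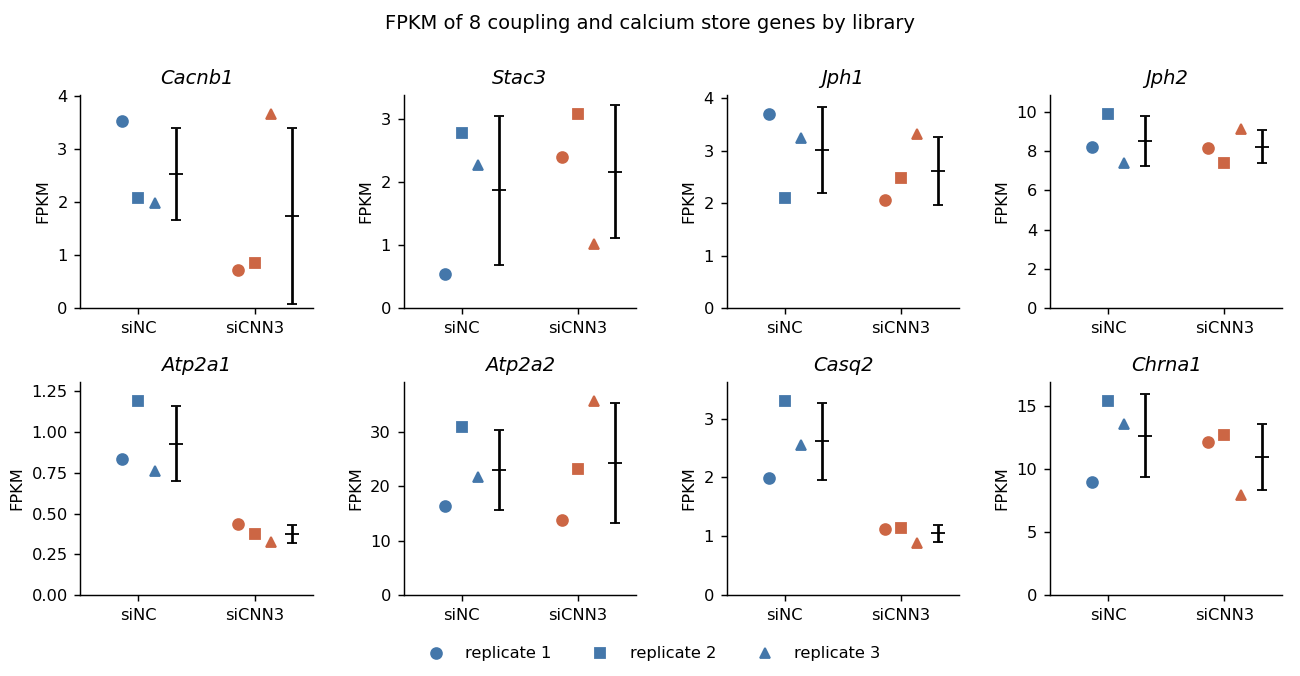
FPKM (linear axis from 0) of the 8 measured genes in each library, with 1 point per replicate and the mean ± SD (n = 3) in black. The 3 siCNN3 points of Casq2 (0.888 to 1.14 FPKM) and of Atp2a1 (0.324 to 0.436 FPKM) lie below all siNC points, while the points of the other 6 genes overlap between groups.

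Genes whose 6 libraries averaged 0.5 FPKM or more entered the limma test on log2(FPKM + 1), SE being its standard error, and a gene with a Benjamini-Hochberg adjusted p below 0.05 was called. Fold changes are on that scale, on which low genes appear to change less than in FPKM themselves. All 8 measured genes passed the filter, Atp2a1 with a siCNN3 mean below it, so that gene passed through its siNC values. Of the 8, 0 were called higher or lower by limma, where 2.06% of all 11593 tested genes were called (0.336% lower and 1.73% higher). Those percentages stand for 39 and 200 genes, a split that became 93 and 199 after quantile normalization. At an unadjusted p below 0.05 there were 2, Casq2 and Atp2a1, both with a lower mean in siCNN3, compared with 16.1% of all tested genes in either direction and 6.14% in the lower one. The same 2 genes had groups that did not overlap, with siCNN3 lower, where 9.35% of all tested genes did so in that direction and 23.1% in either. The median log2 fold change of the 8 was -0.17, with 6 below 0, and that of all tested genes was 0.03, with 5335 below 0. The median of the 8 was -0.29 without siCNN3 replicate 3 and -0.26 without siNC replicate 1, and the 3 of the 8 that passed a filter at 5 FPKM had a median of -0.04.

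**Figure D2:**
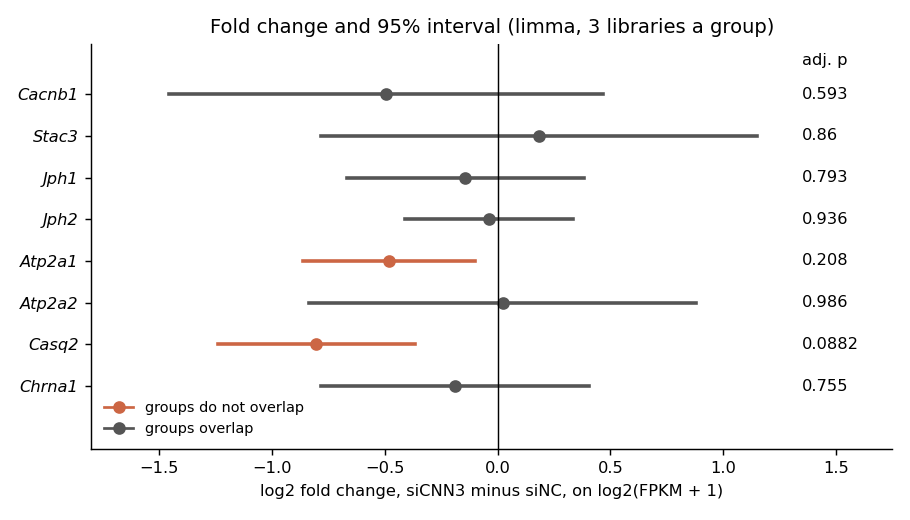
Log2 fold change of siCNN3 minus siNC on the log2(FPKM + 1) scale, with the 95% interval from limma as a line and the adjusted p at the right. The intervals of Casq2 (-1.24 to -0.37) and Atp2a1 (-0.86 to -0.10) do not reach 0, and the adjusted p of all 8 genes lies above 0.05.

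Casq2 and Atp2a1, which hold and refill the calcium store, had the lowest siCNN3 levels relative to siNC, at 40.3% and 40.6% of the siNC means. Casq2 encodes calsequestrin 2, the calcium-binding protein of the store in heart and slow muscle, which is also made by developing skeletal muscle. It lies on the forward strand of chromosome 3 (GRCm38, 102086415 to 102146514). It measured 1.99, 3.30 and 2.55 FPKM across siNC replicates 1, 2 and 3, against 1.13, 1.14 and 0.888 FPKM across those of siCNN3. The lowest siNC library was thus above the highest siCNN3 library, and the siCNN3 libraries were the closer together, with a highest value 1.29 times the lowest compared with 1.65 times in siNC. These values average 2.61 ± 0.655 FPKM for siNC and 1.05 ± 0.143 FPKM for siCNN3 (SD, n = 3). For Casq2, limma gave a log2 fold change of -0.80 (SE 0.18, adjusted p = 0.0882), and the gene was not called. After quantile normalization it was called, at -0.84 on the log2 scale (adjusted p = 0.0477). Over the 16 alternatives that gave a value, its adjusted p ranged from 0.0477 to 0.286 and its log2 fold change from -1.21 to -0.67, with siCNN3 lower in each. The exact permutation p was 0.1, the smallest that 3 against 3 allows. Myotube markers moved the same way, as given above, and fewer differentiated cells cannot be told apart from less RNA per cell in bulk RNA.

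Atp2a1 encodes SERCA1, the calcium pump of fast skeletal muscle (chromosome 7, reverse strand, 126445858 to 126463108). Its 1 listed transcript, Atp2a1-201, has 994 codons, the length of the adult form SERCA1a. It measured 0.835, 1.19 and 0.764 FPKM across the siNC libraries, against 0.436, 0.372 and 0.324 FPKM across those of siCNN3. The groups did not overlap, although every library was close to the lower end of the measured range. Group means were 0.930 ± 0.229 FPKM for siNC and 0.377 ± 0.0559 FPKM for siCNN3 (SD, n = 3). On the log2 scale Atp2a1 differed by -0.48 (SE 0.16, adjusted p = 0.208, limma) and was not called. With a pseudocount of 0.1 in place of 1, which compresses low values less, it was -1.09, and the gene was again not called.

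The stretch before the start of a gene is shown for Casq2 and Atp2a1, whose groups did not overlap, and for Chrna1, whose groups did. Each is the 250 bases before the RefSeq start, read in the direction of the gene from GRCm38.p6: chr3:102086165-102086414 on the forward strand for Casq2, chr7:126463074-126463323 on the reverse strand for Atp2a1, and chr2:73580339-73580588 on the reverse strand for Chrna1. Capitals mark E-boxes (CANNTG), the short sequence bound by the MyoD family, and the MEF2 consensus. Both motifs read the same on the 2 strands.
Casq2: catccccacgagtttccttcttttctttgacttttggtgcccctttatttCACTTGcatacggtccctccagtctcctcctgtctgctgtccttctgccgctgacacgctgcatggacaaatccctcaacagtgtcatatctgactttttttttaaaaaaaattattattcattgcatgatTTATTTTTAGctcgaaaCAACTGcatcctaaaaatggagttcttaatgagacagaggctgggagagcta
Atp2a1: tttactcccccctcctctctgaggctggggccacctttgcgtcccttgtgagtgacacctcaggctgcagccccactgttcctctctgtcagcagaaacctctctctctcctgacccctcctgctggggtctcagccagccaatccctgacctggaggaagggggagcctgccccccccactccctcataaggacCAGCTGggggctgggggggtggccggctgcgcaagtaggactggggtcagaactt
Chrna1: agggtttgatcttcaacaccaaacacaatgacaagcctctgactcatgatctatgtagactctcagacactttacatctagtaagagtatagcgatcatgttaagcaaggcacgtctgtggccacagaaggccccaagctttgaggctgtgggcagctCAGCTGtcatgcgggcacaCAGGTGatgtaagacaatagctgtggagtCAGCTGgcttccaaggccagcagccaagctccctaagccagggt
Casq2 held E-boxes that begin 200 and 52 bases before the start and a MEF2 consensus that begins 69 bases before it. Atp2a1 held 1 E-box, of the form CAGCTG, at 55 bases. Chrna1 held 3, at 92, 73 and 44 bases, of which those at 92 and 44 were CAGCTG. The RefSeq start of Atp2a1 lies inside the listed transcript Atp2a1-201, so the last bases of its window belong to that transcript. RefSeq windows were found for 7 of the 10 genes (Ryr1, Cacna1s, Cacnb1, Atp2a1, Casq2, Jph2 and Chrna1), 9 windows in all. Of the 9 windows, 7 held CANNTG, 5 its form CAGCTG and 1 the MEF2 consensus, while 66.2%, 13% and 2.92% of all 32851 windows held them. The 2 Jph2 windows overlap and share 1 match, which these counts hold 2 times. Of the 2 Cacnb1 windows, the 1 at the start of both listed Cacnb1 transcripts had no match. The other, which held an E-box, lies within the span of both transcripts. The counts also hold the windows of Ryr1 and Cacna1s, which had no listed transcript.

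Atp2a2, which encodes SERCA2, the pump of heart and slow muscle and of the endoplasmic reticulum of most cells, was the highest of the 8 (chromosome 5, 122453513 to 122502225). It measured 16.3, 30.9 and 21.8 FPKM across the siNC libraries, against 13.8, 23.3 and 35.7 FPKM across those of siCNN3. The libraries of each group spread widely, and the siCNN3 range enclosed the siNC range. Atp2a2 had a log2 fold change of 0.02 (95% interval -0.84 to 0.88, adjusted p = 0.986, limma). An interval this wide holds values from a lower to a higher level, so an equal level is not shown. Its sign changed when libraries were scaled by the median of ratios (-0.013) or quantile normalized (-0.075). With 1 library left out, its log2 fold change lay between -0.30 and 0.36.
The 2 listed Atp2a2 transcripts encode the ubiquitous form SERCA2b (Atp2a2-201, 1044 codons) and the muscle form SERCA2a (Atp2a2-202, 998 codons). SERCA2a took 51.2%, 60.5% and 28.4% of the gene's FPKM in siNC and 54.0%, 22.6% and 31.7% in siCNN3. The share varied as widely within a group as between groups. The log2 fold change of Atp2a2-202 was -0.34 and that of Atp2a2-201 was 0.28, and neither was called (adjusted p = 0.816 and 0.876, limma over all transcripts).

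Within a library, Atp2a2 exceeded Atp2a1 in all 6 cases. In FPKM, Atp2a2 was 19.5, 25.9 and 28.5 times Atp2a1 in siNC replicates 1, 2 and 3, and 31.7, 62.5 and 109.97 times in siCNN3 replicates 1, 2 and 3. These ratios did not overlap between the groups, each being higher in siCNN3. The groups of Atp2a1 did not overlap by themselves, while those of Atp2a2 did, so the ratios are not separate from the low Atp2a1 values. The planned test took the difference of log2(FPKM + 1) between Atp2a1 and Atp2a2, which compresses the ratio because Atp2a1 lies near or below 1 FPKM. On that scale the values were -3.24, -3.86 and -3.69 in siNC and -3.37, -4.14 and -4.79 in siCNN3, and the groups overlapped. Their means differed by -0.50 (two-sided exact permutation p = 0.4, 0.6 adjusted over the 2 ratios that could be formed). With a pseudocount of 0.1 the difference was -1.11 (unadjusted exact permutation p = 0.1, the smallest that 3 against 3 allows), so the pseudocount decided whether the groups overlapped. With a pseudocount of 1, the difference was -0.87 without siCNN3 replicate 1, -0.32 without siNC replicate 1 and -0.16 without siCNN3 replicate 3. The other ratio, of Jph1 to Jph2 on the same log2(FPKM + 1) scale, was at a mean of -1.26 ± 0.48 in siNC and -1.36 ± 0.19 in siCNN3 (SD, n = 3, exact permutation p = 0.6, adjusted p = 0.6), and the difference of -0.11 changed sign when replicate 1 of siNC (0.04), replicate 3 of siNC (0.03) or replicate 1 of siCNN3 (0.0031) was left out.

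Of the voltage sensor complex, Cacnb1 and Stac3 were measured. Cacnb1 encodes the beta subunit that carries the channel to the membrane of the T-tubule (chromosome 11, 98001508 to 98023034). It measured 3.52, 2.08 and 1.98 FPKM across the siNC libraries, against 0.727, 0.846 and 3.66 FPKM across those of siCNN3. Replicates 1 and 2 of siCNN3 were below all siNC libraries, and replicate 3 was above them. Over all 6 libraries Cacnb1 had a log2 fold change of -0.49 (SE 0.40, adjusted p = 0.593, limma), and it ranged from -0.96 without siCNN3 replicate 3 (adjusted p = 0.0798) to -0.24 without siCNN3 replicate 1. The difference between siCNN3 libraries lay mostly in the transcript Cacnb1-202, whose 524 codons are the length of the skeletal muscle form. It measured 2.16, 1.24 and 1.46 FPKM across the siNC libraries, against 0, 0 and 2.52 FPKM across those of siCNN3. The longer transcript Cacnb1-201, of 597 codons, measured 1.36, 0.842 and 0.524 FPKM across the siNC libraries, against 0.727, 0.846 and 1.14 FPKM across those of siCNN3, with groups that overlapped. An exact 0 may be an estimate that failed: 235 transcripts had a 0 in a library whose group also holds a value of 10 FPKM or more for them. When transcripts with a 0 in any library were left out, the log2 fold change of Cacnb1 was 0.01 (adjusted p = 0.985).

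Stac3, an adaptor that the voltage sensor needs to open the ryanodine receptor, lies on chromosome 10 (127501686 to 127508823). It measured 0.538, 2.79 and 2.28 FPKM across the siNC libraries, against 2.40, 3.08 and 1.02 FPKM across those of siCNN3. In each group 1 library was low, siNC replicate 1 and siCNN3 replicate 3. For Stac3, limma gave 0.19 as the log2 fold change (SE 0.41, 95% interval -0.78 to 1.15, adjusted p = 0.860), and it was -0.21 without siNC replicate 1 and -0.03 without siCNN3 replicate 2.
Its transcripts Stac3-201 and Stac3-202 both have 360 codons and were split unevenly between libraries. Stac3-201 measured 0.538, 0 and 2.04 FPKM across the siNC libraries, against 1.19, 0.336 and 1.02 FPKM across those of siCNN3. Stac3-202 measured 0, 2.19 and 0 FPKM across the siNC libraries, against 0.950, 2.22 and 0 FPKM across those of siCNN3. It was therefore above 0 in siNC replicate 2 and siCNN3 replicates 1 and 2 alone. The short transcript Stac3-203 was at 0.598 FPKM or less in every library and its mean did not reach the filter.

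The junctophilins span the gap between the T-tubule and the sarcoplasmic reticulum. Jph1, the skeletal muscle form (chromosome 1, 16964560 to 17097889), measured 3.70, 2.10 and 3.25 FPKM across the siNC libraries, against 2.06, 2.47 and 3.33 FPKM across those of siCNN3. Jph2, the form of heart muscle that skeletal muscle also makes (chromosome 2, 163336242 to 163397993), measured 8.19, 9.89 and 7.41 FPKM across the siNC libraries, against 8.15, 7.41 and 9.13 FPKM across those of siCNN3. The values of the groups lay among each other for both genes. The log2 fold changes were -0.14 for Jph1 (95% interval -0.67 to 0.38) and -0.04 for Jph2 (-0.41 to 0.34), with adjusted p of 0.793 and 0.936 (limma). For Jph1 the value ranged from -0.32 without siNC replicate 2 to -0.02 without siNC replicate 1. Jph2 had the narrowest interval of the 8 genes. Its log2 fold change was 0.07 without siNC replicate 2, 0.03 without siCNN3 replicate 2 and 0.15 after the dependence on GC content and length was taken out of each library.
At the level of transcripts Jph2 was less even. Jph2-201 and Jph2-202 share their 696 codons, end at the same base and start 44 bases apart, so reads from the shared part can be assigned to either. Jph2-202 took 31.0% of the gene's FPKM in siNC replicate 2 and 47.8% and 63.8% in siCNN3 replicates 1 and 2. In the other 3 libraries it took 0.264% or less. Stac3-202 was above 0 in the same 3 libraries in which Jph2-202 held a large share, a split that crosses the groups. Over the 13 transcripts of the 8 genes, 12 were tested and 0 were called by limma, where 0.54% of all 21658 tested transcripts were called. At an unadjusted p below 0.05 there were 2, Casq2-201 and Atp2a1-201, and the share of all transcripts at that threshold was not counted. Each is the only listed transcript of its gene, so it repeats the values of the gene. Atp2a1-201 passed the filter through its siNC values. Those 2 transcripts were also the ones whose groups did not overlap, against 17.9% of all tested transcripts in either direction.

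**Figure D3:**
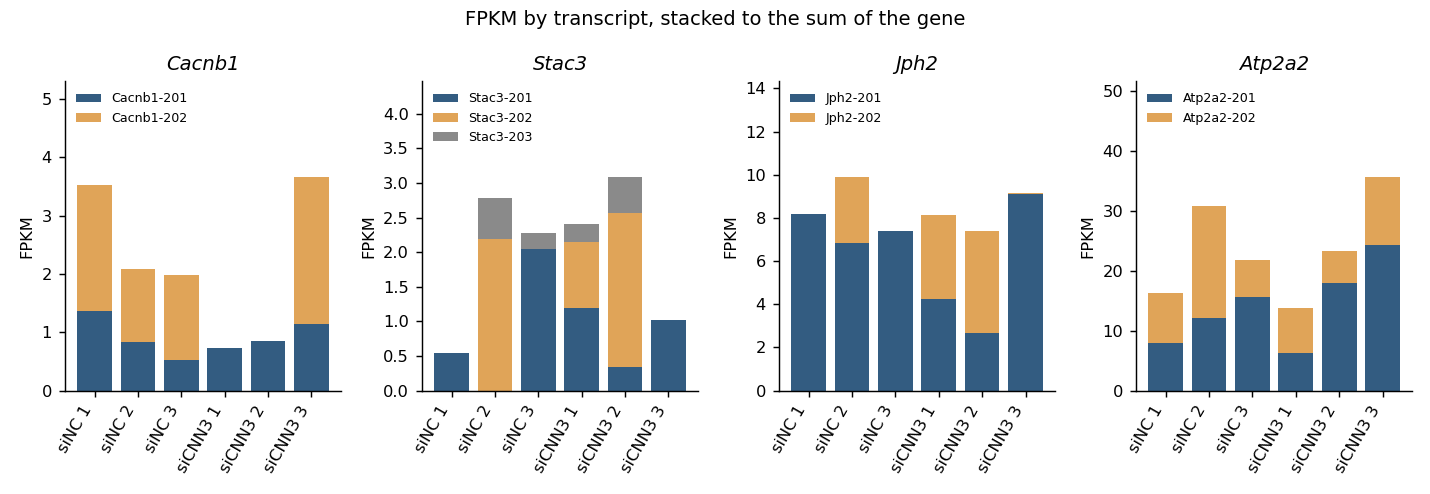
FPKM of the listed transcripts of Cacnb1, Stac3, Jph2 and Atp2a2 in each library, stacked to the sum of the gene (linear axes from 0). Cacnb1-202 is listed at 0 in siCNN3 replicates 1 and 2, and Stac3-202 and Jph2-202 stand out in siNC replicate 2 and siCNN3 replicates 1 and 2, while the sums of Jph2 stay between 7.41 and 9.89 FPKM.

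Chrna1 encodes the alpha subunit of the muscle acetylcholine receptor, which binds acetylcholine (chromosome 2, 73563215 to 73580338). It measured 9.002, 15.4 and 13.6 FPKM across the siNC libraries, against 12.2, 12.7 and 7.94 FPKM across those of siCNN3. The lowest library of each group was siNC replicate 1 and siCNN3 replicate 3, as for Stac3, and the other 4 libraries lay between 12.2 and 15.4 FPKM. Chrna1 differed by -0.19 on the log2 scale (SE 0.25, 95% interval -0.78 to 0.40, adjusted p = 0.755, limma), and it was 0.01 without siCNN3 replicate 3.

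The other genes of the pathway were taken from 9 lists with 112 genes, the 10 genes above included. Of these, 76 were listed and 73 tested, and 0 were called by limma. At an unadjusted p below 0.05, 11 had a lower and 4 a higher mean in siCNN3, where 6.14% and 9.94% of all tested genes did. Of the 11, 3 had a siCNN3 mean below the filter and entered the test through siNC: Atp2a1, Chrng and Hrc, which encodes a calcium-binding protein of the store and averaged 0.935 FPKM in siNC and 0.290 in siCNN3. Hrc was chosen after its values were seen, and no tested list gene entered through siCNN3 alone, so these counts of lower genes are a description only. Over the 73 tested genes the median log2 fold change was -0.15, 49 being below 0, and it was the same for the 65 tested genes that are not among the 8. The same 3 genes are among the 12 in which the siCNN3 values all lay below the siNC values, and in 5 genes they lay above, compared with 9.35% and 13.8% of all tested genes.
Of the acetylcholine receptor and end plate list, 8 genes were tested, with a median log2 fold change of -0.22. Chrng encodes the gamma subunit of the embryonic receptor. It measured 1.05, 1.48 and 0.987 FPKM across the siNC libraries, against 0.167, 0.241 and 0.323 FPKM across those of siCNN3, so the groups did not overlap. Its siCNN3 mean was 0.244 FPKM, below the filter, so Chrng, like Atp2a1, entered the test through its siNC values. Chrng differed by -0.80 on the log2 scale (SE 0.17, adjusted p = 0.0692, limma), and it was called after quantile normalization (-0.91, adjusted p = 0.0474). Chrna1, its partner in the same receptor, had groups that overlapped, and the difference between the 2 subunits was not tested. Agrn encodes agrin, which clusters the receptor. It measured 11.3, 16.6 and 16.5 FPKM across the siNC libraries, against 25.8, 29.8 and 48.8 FPKM across those of siCNN3, with each siCNN3 library above each siNC library. The log2 fold change of Agrn was 1.15 (SE 0.27, adjusted p = 0.0902, limma), and it was called after removal of length and GC content trends (1.39, adjusted p = 0.0365).

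Of the store buffer list, 10 genes were tested, 8 of them below 0, with a median log2 fold change of -0.30. Casq1, the calsequestrin of fast muscle, was not listed. Rcn1 and Rcn2 encode reticulocalbins, calcium-binding proteins of the endoplasmic reticulum. Rcn1 averaged 66.6 ± 7.18 FPKM for siNC and 99.9 ± 18.6 FPKM for siCNN3, and Rcn2 averaged 40.5 ± 3.70 and 31.5 ± 0.746 FPKM (SD, n = 3). The log2 fold changes were 0.57 and -0.35, opposite in sign, with adjusted p of 0.158 and 0.198 (limma). Without siCNN3 replicate 3, Rcn1 was called higher (0.72, adjusted p = 0.0357).
The list of release channels and partners had 14 tested genes and a median of -0.08. Jsrp1, which encodes a protein of the junctional reticulum that binds calsequestrin and the voltage sensor, measured 1.79, 1.67 and 2.07 FPKM across the siNC libraries, against 0, 0.696 and 0.945 FPKM across those of siCNN3 (log2 fold change -0.93, adjusted p = 0.146, limma). The 0 is that of its 1 listed transcript and may be an estimate that failed. Jsrp1 thus had no value when transcripts holding a 0 were left out. S100a1, a calcium-binding partner of the release channel, measured 93.0, 82.3 and 92.5 FPKM across the siNC libraries, against 47.4, 54.9 and 81.1 FPKM across those of siCNN3 (-0.57, adjusted p = 0.226), and it was called lower without siCNN3 replicate 3 (-0.79, adjusted p = 0.0244). Replicate 3 of siCNN3 was thus close to siNC for this gene.

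The junction and T-tubule list had 10 tested genes and a median of -0.05. Mtm1, which encodes myotubularin, a lipid phosphatase needed for the triad, measured 2.44, 0.712 and 2.40 FPKM across the siNC libraries, against 7.60, 4.57 and 5.83 FPKM across those of siCNN3. The groups did not overlap, and limma gave a log2 fold change of 1.34 (SE 0.32, adjusted p = 0.0935). Mtmr14, a related phosphatase, averaged 9.11 ± 1.44 FPKM for siNC and 6.88 ± 1.95 FPKM for siCNN3 (SD, n = 3), and its log2 fold change was -0.38 (adjusted p = 0.438).
Of the voltage sensor list, 7 genes were tested, 6 of them below 0, with a median of -0.32. Cacng1, the gamma subunit of the sensor, was at 19.4 ± 2.19 and 15.4 ± 1.70 FPKM, and Cacna2d1, its alpha2/delta subunit, at 11.4 ± 4.62 and 7.18 ± 1.60 FPKM (siNC and siCNN3, SD, n = 3). Their log2 fold changes were -0.32 and -0.55 (adjusted p = 0.339 and 0.395, limma).

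Of the pumps and small inhibitors, 4 genes were tested. Mrln, which encodes the SERCA inhibitor myoregulin, averaged 1.27 ± 1.09 FPKM for siNC and 0.537 ± 0.00556 FPKM for siCNN3 (SD, n = 3, log2 fold change -0.44, adjusted p = 0.586, limma), and Ormdl3, a regulator of sphingolipid synthesis, had a log2 fold change of 0.17 (adjusted p = 0.628). The inhibitors Sln and Pln were not listed. The calcium extrusion and cytosolic buffering list had 9 tested genes and a median of -0.01. Atp2b4, a calcium pump of the plasma membrane, measured 19.7, 13.5 and 20.4 FPKM across the siNC libraries, against 4.84, 7.15 and 14.2 FPKM across those of siCNN3 (log2 fold change -1.05, adjusted p = 0.214, limma), and without siCNN3 replicate 3 it was called lower (-1.43, adjusted p = 0.0337).
The 6 tested genes of store-operated entry had a median of -0.03, and none had an unadjusted p below 0.05. Stim2, a sensor of the filling of the store, and Orai1, the channel that the sensors open, had log2 fold changes of -0.15 and -0.18 (adjusted p = 0.687 and 0.581, limma). Of 5 tested genes of the action potential, with a median of -0.33, the sodium pump subunit Atp1b1 and the potassium channel Kcnj2 had siCNN3 values below all siNC values (-0.38 and -0.39, adjusted p = 0.307 and 0.463).

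**Figure D4:**
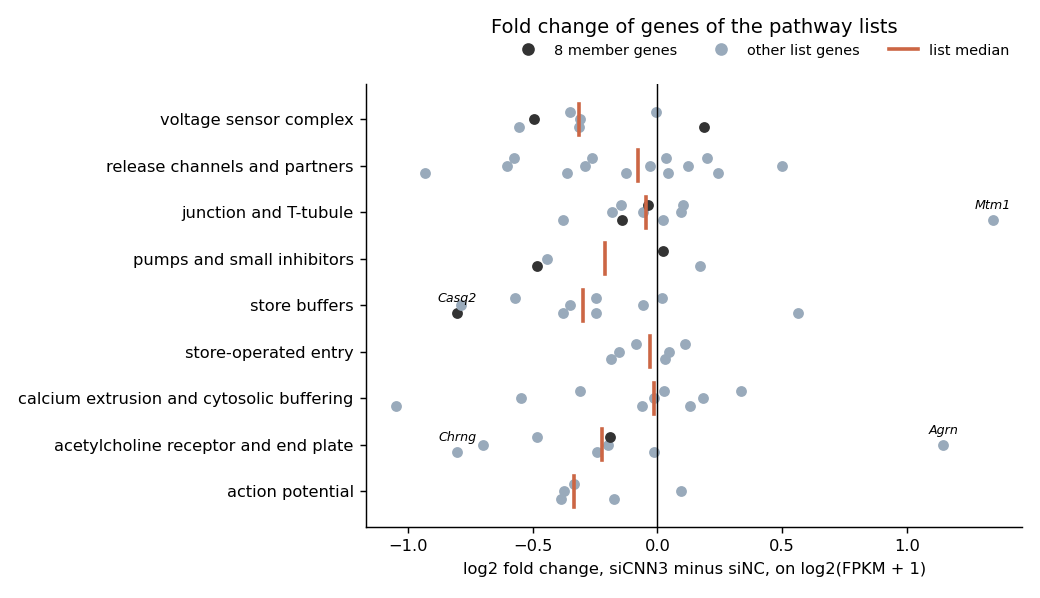
Log2 fold change (siCNN3 minus siNC, log2(FPKM + 1) scale) of each tested gene of the 9 pathway lists, with 1 point per gene, the 8 measured genes in black and the median of each list as a bar. List medians lie between -0.33 and -0.01, and Mtm1 at 1.34 and Agrn at 1.15 lie farthest to the right.

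The genes whose profile over the 6 libraries was most like the mean of the 8 scaled profiles were Sh3d19 (Pearson r = 0.997), Manf (0.989), Edem1 (0.988), Car5b (0.987) and Lnx2 (0.985). These correlations are a description over 6 libraries that share their groups. The mean scaled profile was highest in siNC replicate 2, at 0.785, and lowest in siCNN3 replicate 1, at -0.570, with siNC replicate 1 at -0.0509 and siCNN3 replicate 3 at -0.0627. Sh3d19 followed the same order, with 21.6, 27.2 and 23.9 FPKM across siNC, against 19.1, 20.3 and 21.6 FPKM across siCNN3, and it was not called (adjusted p = 0.425, limma).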

How the data were processed

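RNA of 3 siNC and 3 siCNN3 libraries was measured by RNA sequencing. The authors deposited FPKM per Ensembl transcript and library. The program that estimated them and the annotation are not given in the sources used here, and the submitters' processing notes name Bowtie 0.12.2 and the builds mm8 and mm10. No read numbers are given, so the depth and its counting error are unknown. Of 24023 transcripts, 23949 matched GENCODE M21 (GRCm38) without their version. Those not matched held 0.159% to 0.220% of the FPKM and were left out. FPKM were summed by gene symbol, which includes near-identical transcripts whose reads the estimate can split.

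Sums averaging 0.5 FPKM or more entered limma 3.58.1 as log2(FPKM + 1) in R 4.3.3 (mean-variance trend, Benjamini-Hochberg adjustment over all genes, threshold 0.05). The fit was tested on simulated data. Single values were compared by two-sided exact permutation tests in scipy 1.17.1. The planned ratio of Cacna1s to Ryr1 could not be formed. Alternatives were another pseudocount (0.1), no filter or one at 5 FPKM, quantile normalization, scaling by the median of ratios, no trend, the replicate number as a block, removal of each library's dependence on length and GC content (splines, 4 degrees of freedom), transcripts with a 0 left out, matching with the version, and each library left out.

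The members, the lists and the tests were chosen with earlier results of these data known. All members are named, and of each list the called genes and the 2 other genes with the lowest p, as well as the 5 genes with the most similar profile. A gene that this rule names is not reported here. Other named genes, cell type markers among them, come from the lists. Promoter windows are those of RefSeq (GRCm38.p6). Figures were made with matplotlib 3.10.9.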

Additional observations from a re-analysis of the deposited data

How the results depend on the processing

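None of the 8 measured genes was called, and under each of the alternatives with a value this held, except that Casq2 was called lower after quantile normalization, which gave 1 gene called lower. Of the pathway lists, quantile normalization called 2 lower (Casq2 and Chrng), and the removal of GC content and length trends called 1 higher (Agrn), alone or with the replicate block. With 1 library left out, 0 to 2 list genes were called lower and 0 to 1 higher, the calls coming without siCNN3 replicate 3 (Atp2b4, S100a1 and Rcn1). Cnn3 had a log2 fold change of -1.46 to -0.95 with 1 library left out and was called in 1 of these fits. Stac3 had no value when transcripts holding a 0 were left out, and the filter at 5 FPKM left Atp2a2, Jph2 and Chrna1 of the 8. The direction of 5 genes changed. Atp2a2 was at -0.013 when libraries were scaled by the median of ratios and at -0.075 after quantile normalization, and between -0.30 and 0.36 with 1 library left out. Jph2 was at 0.15 after removal of GC content and length trends, with or without the block, and between -0.12 and 0.067 with 1 library left out. Cacnb1 was at 0.013 without transcripts holding a 0, which left Cacnb1-201. With 1 library left out, Stac3 lay between -0.21 and 0.48, Chrna1 between -0.40 and 0.0076, and the Jph1 to Jph2 ratio between -0.39 and 0.037. The cause of these changes was not tested. The median of all tested genes stayed between -0.05 and 0.06 in all settings. Same-numbered libraries did not deviate together throughout (correlations of -0.28, 0.31 and -0.02 across genes, with 0.44 between siNC replicate 1 and siCNN3 replicate 3), so the numbers were not taken as pairs. With the replicate block, the log2 fold change of Casq2 was -0.80 (adjusted p = 0.213, limma), 0 of the 8 genes were called, and genes called over all dropped from 39 lower and 200 higher to 6 and 62. The counts over all genes also moved to 27 and 125 without transcripts holding a 0, to 63 and 218 with libraries scaled by the median of ratios and to 93 and 199 after quantile normalization. They were 27 and 70, 20 and 151, and 4 and 16 without siNC replicates 1, 2 and 3, in that order, and 7 and 39, 4 and 29, and 161 and 444 without siCNN3 replicates 1, 2 and 3. The unknown depth limits what can be said of Atp2a1, Casq2 and single transcripts near 1 FPKM.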
